A study of Mus musculus with 8 samples.

Results

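The 9 genes described here, Pf4, Ppbp, Clec1b, Rab27b, Fli1, Itga2b, Gp1bb, Gp9 and Gp5, are genes of megakaryocytes and of the platelets they release. They were taken by name, as every probe set that the array annotation assigns to 1 of these symbols alone. That gave 12 probe sets for 9 genes, of 22626 probe sets and 12393 named genes on the array. A further probe set, annotated jointly to Gp1bb and its neighbour Septin5, was named for neither; it was too dim to be tested, at mean signals of 63.0 and 33.2.

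The genes were measured in yolk sacs dissected at embryonic day 9.5 from mice of the inbred strain FVB/N. The erythroid group held 4 samples of primitive erythroid precursors, the first red cells of the embryo, and the epithelial group 4 samples of yolk sac epithelial cells, which the labels call the non-erythroid control. Both were cut by laser from stained frozen sections, and each erythroid sample was paired with an epithelial one taken afterwards from its own slides. Each pair pooled 2 to 4 yolk sacs of 2 litters, the mice carried no stated mutation or treatment, and each sample had its own Affymetrix expression array.

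Megakaryocytes and red cells arise from shared progenitors and share transcription factors such as Gata1 and Tal1, while Fli1 favours the megakaryocyte side. The yolk sac makes a first wave of both lineages. Platelets are then filled with granules that hold chemokines such as the products of Pf4 and Ppbp, and carry receptors for collagen, von Willebrand factor, fibrinogen and podoplanin.

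Start regions of 4 of the genes are shown because Pf4, Ppbp and Clec1b had the largest differences between the captures and Gp5 the lowest. Each runs 5′ to 3′ on the gene's strand from 250 bases before the start to 50 after it, as given by RefSeq on GRCm38.p6. Pf4 lies at chr5:90772185-90772484 and Ppbp at chr5:90768268-90768567, both on the plus strand of chromosome 5. Clec1b lies at chr6:129397047-129397346 on the plus strand and Gp5 at chr16:30310732-30311031 on the minus strand. Capitals mark GATAA, letters of the kind that Gata factors bind, and GGAAG, letters of the kind that Ets factors such as Fli1 bind. On the other strand they read TTATC and CTTCC.
Pf4: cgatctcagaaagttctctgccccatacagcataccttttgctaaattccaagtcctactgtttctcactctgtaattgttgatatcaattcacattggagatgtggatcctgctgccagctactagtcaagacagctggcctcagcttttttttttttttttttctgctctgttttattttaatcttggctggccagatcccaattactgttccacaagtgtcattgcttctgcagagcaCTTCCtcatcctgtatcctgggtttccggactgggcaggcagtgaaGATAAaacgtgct
Ppbp: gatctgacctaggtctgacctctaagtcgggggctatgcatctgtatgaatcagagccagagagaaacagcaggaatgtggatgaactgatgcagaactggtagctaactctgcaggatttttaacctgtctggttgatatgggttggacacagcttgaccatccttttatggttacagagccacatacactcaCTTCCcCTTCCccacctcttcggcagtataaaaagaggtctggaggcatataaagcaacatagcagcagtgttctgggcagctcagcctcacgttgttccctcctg
Clec1b: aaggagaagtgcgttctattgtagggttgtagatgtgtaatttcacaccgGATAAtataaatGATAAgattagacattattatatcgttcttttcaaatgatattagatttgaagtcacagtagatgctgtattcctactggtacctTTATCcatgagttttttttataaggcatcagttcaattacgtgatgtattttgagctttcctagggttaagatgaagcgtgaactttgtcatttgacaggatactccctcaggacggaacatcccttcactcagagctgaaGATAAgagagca
Gp5: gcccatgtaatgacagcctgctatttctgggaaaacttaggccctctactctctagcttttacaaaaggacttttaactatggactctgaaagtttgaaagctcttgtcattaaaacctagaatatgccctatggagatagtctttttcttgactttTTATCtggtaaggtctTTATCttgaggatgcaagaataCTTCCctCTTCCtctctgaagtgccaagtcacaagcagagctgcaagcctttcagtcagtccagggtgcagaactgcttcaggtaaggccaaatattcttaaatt

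Both motifs were searched on both strands, and they can overlap by the single base G. Start regions of 7 of the 9 genes were searched: none was found for Fli1, and that of Rab27b was left out. GATAA occurred in 4 of these 7, against 25.4% of all 32851 start regions of this length, and GGAAG in 6 of 7, against 71.4%. Clec1b held 4 matches to GATAA and none to GGAAG, and Ppbp held 2 to GGAAG and none to GATAA. Pf4 held 1 of each, with GATAA 38 bases into the transcript. Gp5 held 2 of each. These are matches of letters, and binding was not measured. Pf4 and Ppbp are also neighbours: in the RefSeq gene order Ppbp is the protein-coding gene next to Pf4, within a run of Cxcl chemokine genes.

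The deposited signals had been scaled to 1 trimmed mean, and the arrays still differed in their lower range. Array medians ran from 81.5 to 127. The background level, the 95th percentile of 117 probe sets for receptors and hair or defence proteins not thought to be active here, lay between 55.1 and 133, and 48.7% to 57.7% of probe sets were above it. For the Gapdh control the 3′ probe set was 38.7 to 44.4 times as bright as the 5′ one in pairs 1 and 2, against 7.0 to 17.4 times in pairs 3 and 4, so values for each set of pairs are given for the members and the gene lists. The captures matched their labels in that 12 of 17 primitive erythroid markers were higher and 0 lower in the erythroid samples, and 15 of 18 markers of visceral endoderm were lower and 1, Sox17, higher. Of all genes tested, 6.02% were higher and 8.90% lower. These marker lists were chosen with earlier results of these data known, so the match is no independent check. The brightest markers of each kind did not part the captures. Mean erythroid and epithelial signals were 39902 and 36732 for the embryonic globin gene Hbb-bh1, and 35217 and 30017 for Hbb-y, and neither was called. Nor was Afp (26340 and 26125) or Ttr (28477 and 29130), which encode proteins secreted by endoderm. The limma fit covered 11449 probe sets and called 708 of them higher and 886 lower. Median centring of the arrays, which moved the median of all probe sets from 0.02 to -0.11, gave 455 and 1097. The number of arrays, 4 in a group, limits the precision of every value. In captured tissue, fewer cells of a type and less RNA per cell cannot be told apart.

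Pf4, Clec1b, Rab27b and Fli1 were higher in the erythroid captures, by 2.6 to 4.5-fold, and none of the 9 genes was called lower. The integrin subunit Itga2b and the 3 glycoprotein genes Gp1bb, Gp9 and Gp5 gave no call. Of the 12 probe sets 8 passed the filter on dim values and were tested, 1 for each gene but Gp9. Of these 8, 4 were called higher and 0 lower, where 6.18% of all probe sets tested were called higher and 7.74% lower. A probe set that is bright in only 1 group can pass this filter through that group, so the tested probe sets do not stand for all 12. The 8 tested genes had a median difference of 1.52 on the log2 scale, and the 7192 genes tested on the array one of -0.01. Differences below are erythroid minus epithelial, on the scale of log2 of the signal plus an offset of 8.14, with the standard error (SE) of a fit that pairs the samples.

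**Figure D1:**
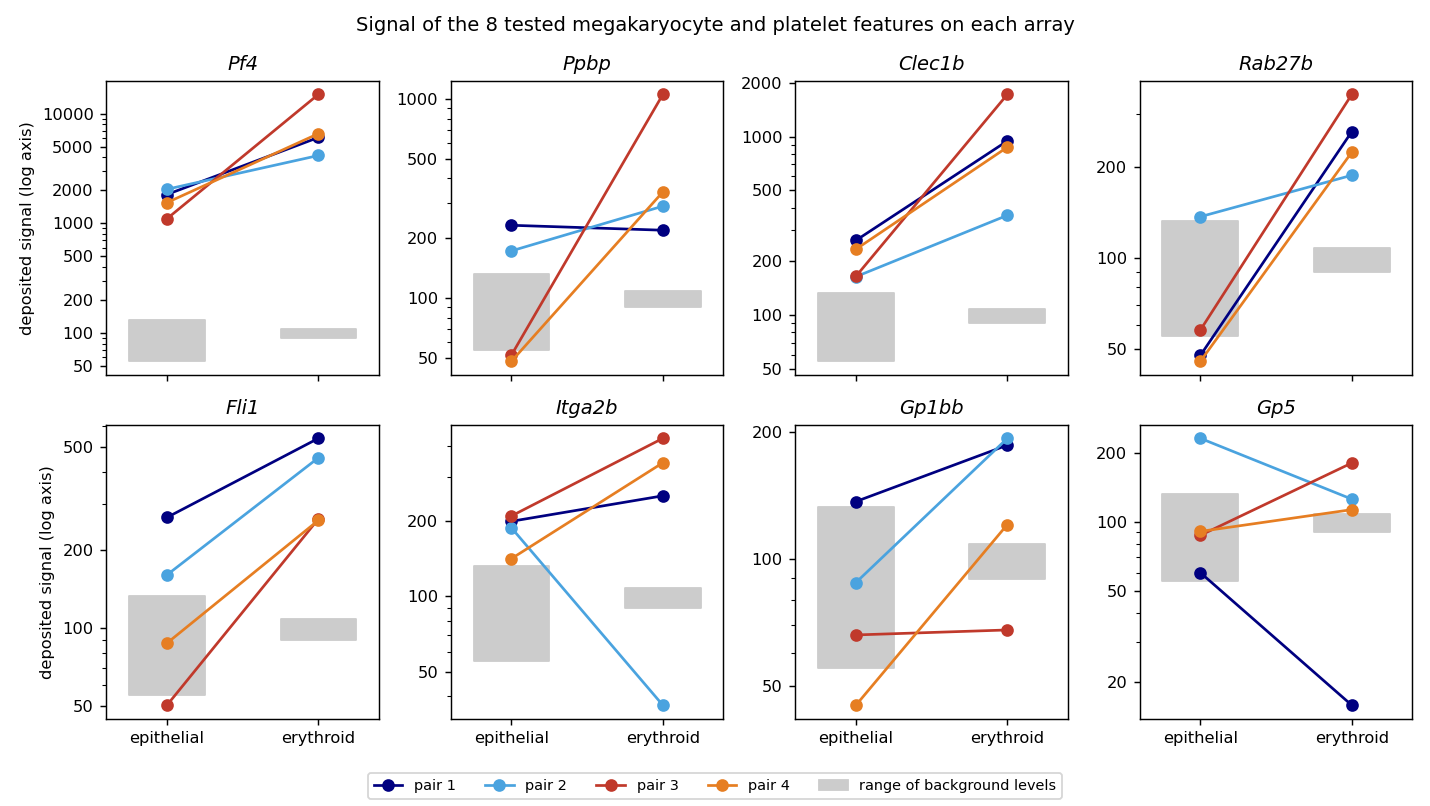
Deposited signal (log axis) of the tested probe set of 8 genes on each of the 8 arrays; a line joins the epithelial and erythroid sample of a pair, and grey bands span the background levels of the 4 arrays of a group. Pf4, Clec1b and Rab27b show no overlap between groups, while Itga2b drops in pair 2 to 36.7.

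Pf4 encodes platelet factor 4, a chemokine of platelet alpha granules. Its signals in the erythroid captures of pairs 1 to 4 were 6074, 4157, 15006 and 6579.9. In the epithelial captures they were 1832, 2046, 1101 and 1545. The groups did not overlap, and the erythroid sample of pair 3 was the highest. The means were 7954 ± 4816 and 1631 ± 409 (SD, n = 4), and the fitted difference was 2.16 ± 0.34 (SE, 4.46-fold, limma adjusted p = 0.00328), with the same sign in 4 of 4 pairs. Pf4 stood well above the background level on all 8 arrays, including the epithelial ones.

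Ppbp encodes the second abundant chemokine of alpha granules, pro-platelet basic protein. Its erythroid signals in pairs 1 to 4 were 219.8, 290.4, 1059 and 343. Its epithelial signals were 233, 173, 51.8 and 48.2. The groups overlapped in pair 1, where the erythroid sample was the lower one, and the erythroid sample of pair 3 was again the highest. The epithelial samples of pairs 3 and 4 lay below the background level, so the size of the difference is uncertain. The fitted difference was 1.70 ± 0.54 (limma adjusted p = 0.0622), positive in 3 of 4 pairs, and did not pass. It passed without pair 1 (2.38 ± 0.50, adjusted p = 0.0121) and with the deposited scaling (adjusted p = 0.0444), and all alternatives together gave adjusted p from 6.02e-11 to 0.718.

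Clec1b encodes the platelet receptor for podoplanin, through which platelets act on lymphatic vessels. Its erythroid signals were 947, 363, 1726 and 874 in pairs 1 to 4. Its epithelial signals were 262, 164, 165 and 234. Every erythroid sample lay above every epithelial one, and pair 2 had the lowest erythroid value. The fitted difference was 2.01 ± 0.31 (4.03-fold, limma adjusted p = 0.0030), with 1 sign in 4 of 4 pairs. Clec1b was above background on all 8 arrays.

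Rab27b encodes a small GTPase that guides the secretion of platelet granules, and had 2 probe sets. The tested one gave erythroid signals of 263, 188, 349 and 225 in pairs 1 to 4. Its epithelial signals were 47.6, 137, 57.7 and 45.5. The groups did not overlap, but the epithelial samples were above background on only 1 of 4 arrays, so the size of the difference is uncertain. It was 1.66 ± 0.38 (3.15-fold, limma adjusted p = 0.0167), positive in 4 of 4 pairs. The call ended when pair 1 (adjusted p = 0.0501), pair 3 (0.0736) or pair 4 (0.0780) was left out, in a range of 0.0040 to 0.0891 over all alternatives. The other probe set of Rab27b was above background on 1 of 8 arrays and was not tested. Its erythroid signals were 103, 91.9, 2.49 and 75.6 against epithelial signals of 5.28, 36.4, 50.0 and 24.6, with the direction turned in pair 3.

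Fli1 encodes an Ets transcription factor of megakaryocytes that endothelial cells also use. Its tested probe set gave erythroid signals of 538, 453, 263 and 260.0 in pairs 1 to 4. Its epithelial signals were 267, 160.0, 50.3 and 87.3. The erythroid sample was higher in each pair. The groups as a whole overlapped, because the epithelial sample of pair 1 was brighter than the erythroid samples of pairs 3 and 4. Within each group, the samples of pairs 1 and 2 were brighter than those of pairs 3 and 4. The fitted difference was 1.38 ± 0.29 (2.60-fold, limma adjusted p = 0.0114); without the pair block the adjusted p was 0.145, in a range of 0.0070 to 0.145 over all alternatives. The other probe set of Fli1 was too dim to be tested, with mean signals of 77.6 ± 42.7 and 63.7 ± 54.0 (SD, n = 4), and was higher in the erythroid sample in 2 of 4 pairs. It was above background on 1 of 4 arrays in each group, so it shows no direction for Fli1.

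Itga2b encodes the alpha subunit of the platelet fibrinogen receptor, known as CD41, an early marker of blood progenitors in the embryo. Its erythroid signals were 252, 36.7, 428 and 342 in pairs 1 to 4. Its epithelial signals were 199, 188, 209 and 141. The erythroid sample was higher in pairs 1, 3 and 4 and far lower in pair 2, where it lay under the background level. The fitted difference was -0.04 ± 0.45 (limma adjusted p = 0.967). Without pair 2 it was 0.64 ± 0.31 (adjusted p = 0.211), and neither value passed. With pair 2 kept, the sign also turned with the deposited scaling (0.11), 75th percentile centring (0.073) and an offset of 32 (0.034).

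Gp1bb, Gp9 and Gp5 encode subunits of the receptor for von Willebrand factor, a complex that marks mature megakaryocytes. None of the 3 passed a test. The tested probe set of Gp1bb gave erythroid signals of 186, 193, 68.0 and 121 and epithelial signals of 137, 88.0, 66.15 and 45.1 in pairs 1 to 4. The groups overlapped, the erythroid sample of pair 3 was the lower one after normalisation, and the difference was 0.51 ± 0.44 (limma adjusted p = 0.477). Its other probe set was above background on all 4 erythroid arrays and on 0 of 4 epithelial ones, with erythroid signals of 111, 118, 322 and 249.8. The epithelial captures, at 77.8, 119.8, 66.1 and 36.4, were not above background, which put the mean of the erythroid captures at least 1.69-fold higher. This probe set failed the filter and was not tested in the main fit. In a fit without the filter its difference was 1.06 ± 0.47 and did not pass (limma adjusted p = 0.241). The pairs differed here: after normalisation pairs 1 and 2 differed by 0.22 and pairs 3 and 4 by 1.91, with bounds of 1.04-fold and 2.75-fold, and the deposited erythroid signal of pair 2 was the lower one. The bound sets the erythroid mean against the lowest signal above background on each epithelial array, or the epithelial value where that is higher.

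Gp9 was not above background on any of the 8 arrays, with signals of 18.7 to 85.4 in the erythroid and 13.8 to 82.6 in the epithelial captures. A signal under that level gives only a bound, and no fold is given. Gp5 gave erythroid signals of 15.9, 125, 180.3 and 113 and epithelial signals of 60.1, 231, 87.3 and 90.8. It was above background on 3 erythroid and 2 epithelial arrays, and after normalisation it was higher in the erythroid sample of pair 3 alone. Its difference was -0.48 ± 0.50 (limma adjusted p = 0.568).

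**Figure D2:**
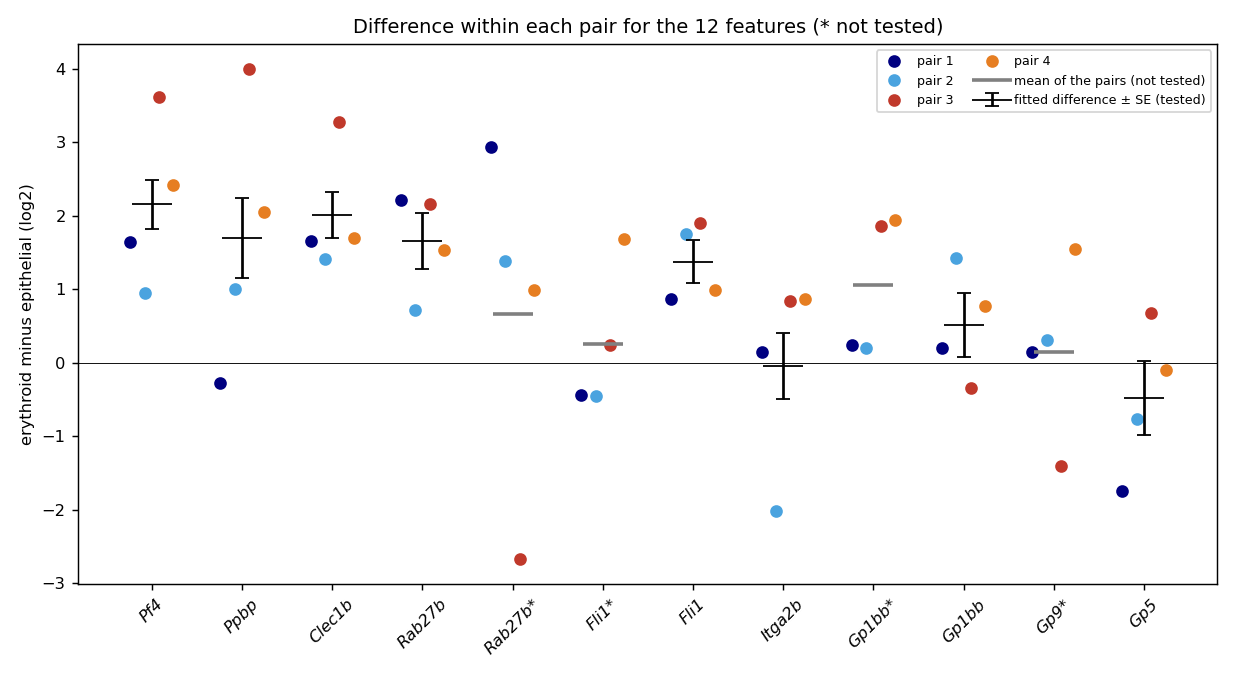
Difference between the erythroid and epithelial sample of each pair on the log2 scale, after quantile normalisation, for all 12 probe sets; black bars are fitted differences ± SE of the 8 tested, grey bars means of the 4 pairs of those not tested (marked *). The 4 points lie above 0 for the tested probe sets of Pf4, Clec1b, Rab27b and Fli1, and on both sides of 0 for Ppbp, Itga2b, Gp5 and the tested probe set of Gp1bb.

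On deposited values, every erythroid signal exceeded every epithelial one for 3 of the 8 tested probe sets, those of Pf4, Clec1b and Rab27b, against 6.00% of all probe sets tested. Rab27b reached the array median on 5 arrays, the erythroid ones among them, so it could pass the filter through that group. Its lack of overlap is thus no separate support. The tested members thus fell into 4 with differences of 1.38 to 2.16, in which all pairs had 1 sign, and 4 in which the pairs disagreed.

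The sets of pairs differed in size of effect for some members. For Pf4 the difference was 1.29 in pairs 1 and 2, against 3.02 in pairs 3 and 4, a difference of 1.72 ± 0.35 that passed the interaction test (limma adjusted p = 0.0159). Of the 8 probe sets it was the 1 that passed, and 1.84% of all probe sets tested did so. Ppbp moved further, from 0.37 to 3.03, but its epithelial signals in pairs 3 and 4 lay below the background level, so that size is uncertain. The difference of 2.66 ± 0.68 missed the threshold (limma adjusted p = 0.0553). With the arrays centred on their medians or on their 75th percentiles this turned round: Ppbp passed (adjusted p = 0.00181 and 0.0120) and Pf4 did not (0.121 and 0.0720). Which of these chemokine genes is called thus depends on the scaling, and over all alternatives the adjusted p ran from 0.00741 to 0.121 for Pf4 and from 0.00181 to 0.125 for Ppbp.

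For the other members the interaction did not pass. Clec1b went from 1.54 in pairs 1 and 2 to 2.48 in pairs 3 and 4 (adjusted p = 0.445), Rab27b from 1.47 to 1.85 (0.891) and Fli1 from 1.31 to 1.44 (0.953). Itga2b was at -0.94 and 0.86 (0.242) and Gp5 at -1.25 and 0.30 (0.527), each with opposite signs in the sets. Gp1bb was at 0.81 and 0.22 (0.841). A wider gap in pairs 3 and 4 was not particular to the members. The median of the 17 primitive erythroid markers went from 1.08 in pairs 1 and 2 to 2.82 in pairs 3 and 4, and that of the 18 visceral endoderm markers from -1.05 to -1.89. Of the erythroid markers 5 passed the interaction test: Slc4a1, the anion exchanger of red cells (1.33 to 3.30, limma adjusted p = 0.00136), Alas2, of haem synthesis (0.49 to 3.47, 0.00250), Klf1 (1.74 to 3.23, 0.0474), Rhag (1.08 to 3.25, 0.0152) and Slc25a37 (1.21 to 2.86, 0.0132). With the other scalings, added after the data were seen, 4 to 7 of the 17 passed. No visceral endoderm marker passed with quantile normalisation, and 1 to 3 did with the other scalings. The lower 3′ to 5′ ratios came in the same pairs, and their part in these differences was not tested.

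**Figure D3:**
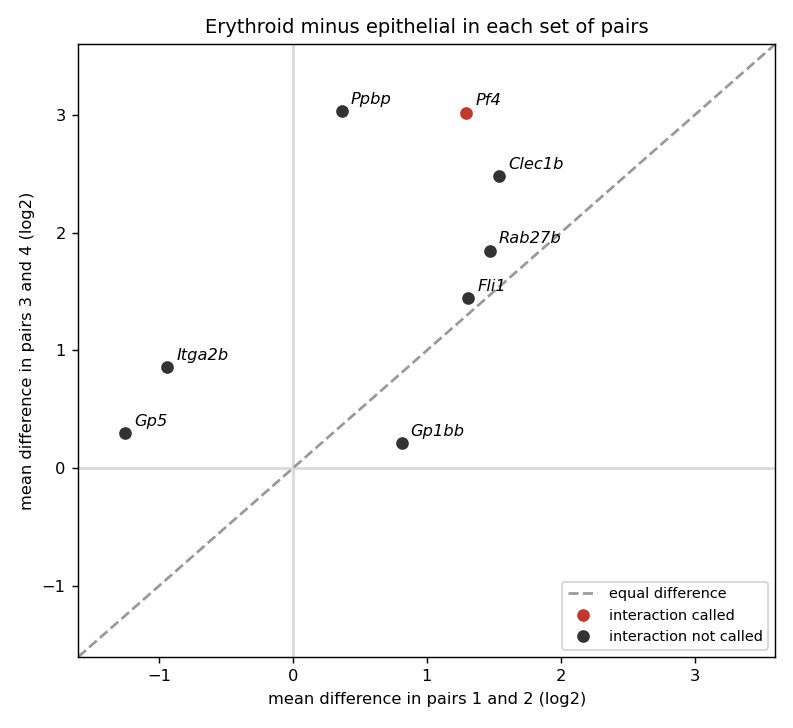
Mean difference (erythroid minus epithelial, log2) in pairs 1 and 2 (horizontal) and in pairs 3 and 4 (vertical) for the 8 tested genes; the dashed line marks equal differences and red marks the gene whose interaction was called. Pf4 and Ppbp have the largest differences in pairs 3 and 4, at 3.02 and 3.03, while Fli1 and Rab27b lie near the dashed line. The epithelial signals of Ppbp in pairs 3 and 4 were below the background level.

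Likeness to Pf4 was measured as the Pearson correlation of log2 values over the 8 arrays, as a description; all genes share these arrays and the split into 2 cell types. Among the members, Clec1b (r = 0.93), Rab27b (0.92) and Ppbp (0.88) followed Pf4 most closely. In the order of all tested genes by this measure they stood at 62, 73 and 159, so many other genes followed Pf4 more closely. Fli1 was at 0.61, Itga2b at 0.27, Gp1bb at 0.14 and Gp5 at -0.08. Among the 7192 genes tested, the 5 most like Pf4 were Pigq, of glycolipid anchor synthesis (0.99), the protease gene Ctse (0.98), Tal1 (0.98), the condensin gene Smc2 (0.98) and Rgs18 (0.97), a regulator of G protein signals in platelets. Rgs18 was the one of these not above background on any epithelial array, with mean signals of 277 and 59.9, so it was at least 2.48-fold higher in the erythroid captures (limma adjusted p = 0.0120). It was picked for its likeness to Pf4, which differed between the groups, and could pass the filter through the erythroid arrays. This p-value is therefore no separate support.

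The wider megakaryocyte programme was read from 5 lists. They contain the 9 members, which count in them. Among transcription factors, 9 of 22 tested genes were higher in the erythroid captures and 0 lower, with a median of 0.70; of all genes tested, 6.02% were higher and 8.90% lower. The highest were Mef2c, a factor of megakaryocyte and muscle genes, at 2.20 ± 0.49, Tal1 at 2.12 ± 0.39 and Gata1 at 2.05 ± 0.32. Lmo2, a partner of Tal1, was at 1.85 ± 0.33 and Myb, a factor of progenitors, at 1.81 ± 0.38. Fli1, the Gata1 cofactor gene Zfpm1 (1.37), Ets1 (1.22) and Gfi1b (1.12) completed the calls, and the smallest difference was that of Elf1, at 0.05. Red cell precursors use several of these factors, among them Tal1, as stated above. Of the called genes, Gata1 and Gfi1b also stand in the list of primitive erythroid markers, as does Nfe2, which had no tested probe set. The median of the transcription factors went from 0.32 in pairs 1 and 2 to 0.95 in pairs 3 and 4, and without pair 4 the calls were 4.

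Platelet surface receptors gave few calls, in both directions. Of 17 tested, Clec1b and the thrombin receptor F2r (0.88 ± 0.20) were higher, and the tetraspanin genes Cd9 (-1.09 ± 0.26) and Cd151 (-0.91 ± 0.15) lower, with a median of 0.26. Among all genes tested 6.02% were higher and 8.90% lower, so counts this small say little about receptors as a group. Of 30 such genes on the array, 9 were not above background on any array, among them Gp9, Itgb3, the partner of Itga2b, and Selp, the P-selectin of granule membranes. The median went from 0.11 in pairs 1 and 2 to 0.29 in pairs 3 and 4. The calls fell from 4 to 2 without pair 3 and without pair 4.

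Among 25 genes of granules and secretion, Pf4 and Rab27b were higher and 5 were lower, where 6.02% of all genes tested were higher and 8.90% lower. Those lower were the fibrinogen chains Fgb (-2.01 ± 0.27), Fgg (-1.54 ± 0.22) and Fga (-1.48 ± 0.25), which endoderm and liver make and platelets take up, the membrane fusion gene Vamp8 (-0.75 ± 0.17) and the annexin Anxa7 (-1.01 ± 0.23). The smallest difference was that of Vamp3, at 0.04, and the median of the 25 was -0.28 (-0.22 in pairs 1 and 2, -0.19 in pairs 3 and 4). The calls fell from 7 to 4 without pair 3 and without pair 4.

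Of 23 cytoskeleton and proplatelet genes, 2 were higher and 1 lower, near the shares of all genes tested (6.02% and 8.90%). Those higher were Plek, the platelet kinase substrate pleckstrin (2.17 ± 0.47, limma adjusted p = 0.0128), and Fermt3, the kindlin that activates integrins in blood cells (1.92 ± 0.29, adjusted p = 0.00297). Gsn, the actin-severing gelsolin, was lower (-1.14 ± 0.15), and Myh9, the nonmuscle myosin, had the smallest difference, at -0.01. Plek went from 0.88 in pairs 1 and 2 to 3.45 in pairs 3 and 4 (limma adjusted p = 0.00747 for the interaction). These genes had a median of 0.10 (0.13 in pairs 1 and 2, 0.38 in pairs 3 and 4), and the calls rose from 3 to 5 without pair 1.

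Of 23 signalling and eicosanoid genes, 4 were higher and 1 lower, with a median of 0.16 (0.11 in pairs 1 and 2, 0.31 in pairs 3 and 4). The shares of all genes tested were 6.02% higher and 8.90% lower. Rgs18, Rgs10 (1.27 ± 0.31), the phospholipase Pla2g4a, which frees arachidonic acid (1.42 ± 0.37), and the small GTPase Rap1a (0.84 ± 0.14) were higher. The G protein gene Gna13 was lower (-1.33 ± 0.24), and the phosphatase Inpp5d had the smallest difference, at 0.08. The calls fell from 5 to 2 without pair 3 and without pair 4.

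**Figure D4:**
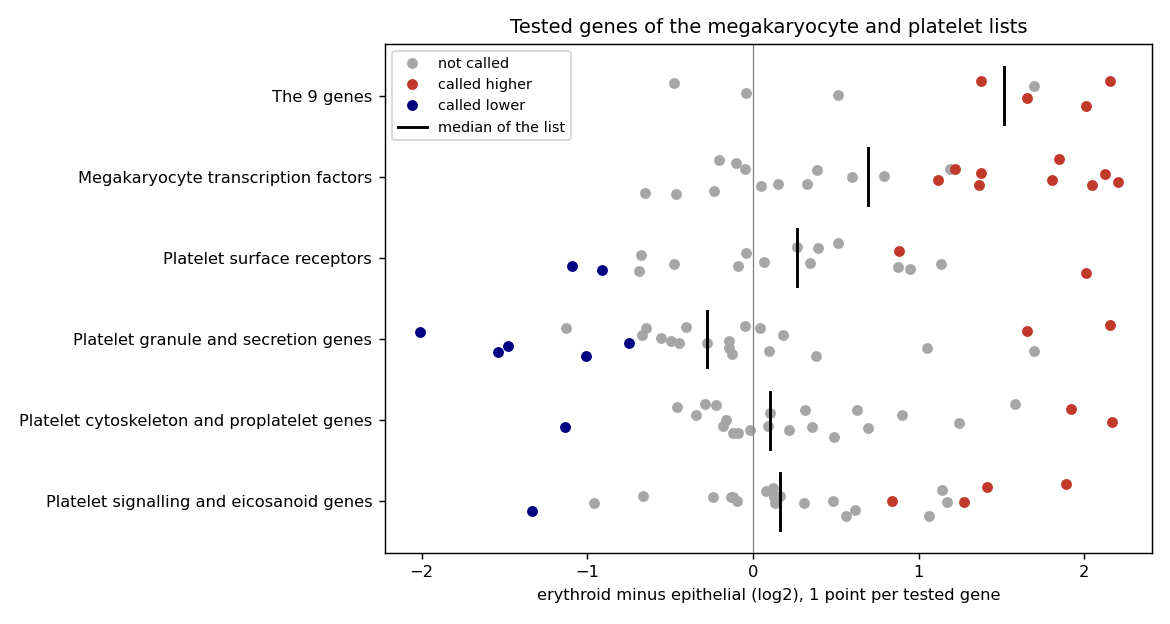
Difference between erythroid and epithelial captures (log2) of each tested gene of the 9 genes and of 5 megakaryocyte and platelet lists; black bars are list medians, red and blue points are genes called higher and lower. Calls run in 1 direction among transcription factors (9 higher, 0 lower) and in both directions in the 4 platelet lists. Of all genes tested 6.02% were called higher and 8.90% lower, so calls in both directions are not particular to these lists.

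Of the marker lists of 4 other kinds of cell, that of mesenchyme and mesothelium held most of the calls. Of 14 mesenchyme and mesothelium markers tested 8 were higher and 0 lower (median 0.36 in pairs 1 and 2, 2.15 in pairs 3 and 4), where 6.02% of all genes were higher. The interaction test passed for 9 of the 14, and for 7 to 9 with the other scalings, against 1.84% of all probe sets tested. Their summed signal was 44580 to 67133 in the erythroid and 11959 to 39354 in the epithelial captures, and Hand2 and Tbx18 were not above background on any array. Of 15 endothelial markers tested, 1 was higher, Tek, at 1.35 ± 0.29, and 0 lower, near the 6.02% of all genes called higher, at a median of 0.48 (0.13 in pairs 1 and 2, 0.81 in pairs 3 and 4). Differences were above 0 for 14 of the 15, where the median of all genes was -0.01. Lyve1 passed the interaction test (0.13 to 1.79, limma adjusted p = 0.00993), and 0 of the 15 did with median centring. The summed signal of the endothelial markers was 4997 to 9470 and 2972 to 4545, and Pecam1, Tie1 and Erg were not above background on any array.

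Of 8 macrophage markers tested, Laptm5 was higher (1.55 ± 0.29) and Fcgr3 lower (-1.23 ± 0.23), and the median of the 8 was 0.53 (0.36 in pairs 1 and 2, 0.60 in pairs 3 and 4). Their summed signal was 2540 to 4516 and 1758 to 2914, and Cd68, C1qa, C1qc, Aif1 and Itgam were not above background on any array. Of 2 myeloid and mast cell markers tested, Mpo and Gata2, none was called (median 0.04 in pairs 1 and 2, 0.72 in pairs 3 and 4), and the summed signal of the list was 986 to 1674 and 764 to 918. This sum includes background signal: of 17 such genes on the array, 7 were not above background on any array. They were Ctsg, Cpa3, Ms4a2, S100a9, Mcpt4, Fcer1a and Ltf. The summed signal of the 9 members, most of it from Pf4, was 5760 to 19369 and 1871 to 3246. The part of such cells in the values of Pf4, Clec1b, Rab27b and Fli1 was not tested.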

How the data were processed

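The 4 erythroid and 4 epithelial samples were each measured on 1 array. The authors deposited 1 intensity per probe set and array, not on a log scale. Per the submitters' processing notes the tools were GCOS, MAS5 and affy (versions not given in the sources used here). Each array's deposited mean after trimming 2% at each end was 500. The members and gene lists were chosen with earlier results of these data known. The rule for named genes was all members, each list's called genes and its largest and smallest difference, and the 5 genes most like Pf4; marker genes of other cell types named above were chosen after their values were seen.

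Values were taken as log2 after adding 8.14, their 10th percentile. Array medians then spanned 0.59, above a limit of 0.5, so arrays were quantile normalised. Probe sets at or above the array median on at least 4 of 8 arrays were tested, 64 control probe sets aside. The fit used limma 3.58.1 in R 4.3.3 (lmFit and eBayes, variance trend on), modelled pair and cell type, and left 3 residual degrees of freedom. Two-sided p-values were adjusted by Benjamini-Hochberg over the 11449 probe sets, at a threshold of 0.05. A second fit added the interaction of cell type with the set of pairs. A gene was read from its brightest tested probe set. Symbols were updated through gene identifiers for 20351 probe sets. Pairing comes from the labels' protocols; deviations of paired samples from their group means correlated at 0.44, 0.34, 0.32 and 0.54. The procedure was tested on simulated data. Alternatives changed the scaling, offset, filter, pair term, variance trend, probe set choice and pairs used.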

Additional observations from a re-analysis of the deposited data

Results flagged for a closer look

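The tested probe set of Pf4 differed more in pairs 3 and 4 than in pairs 1 and 2, by a test of the interaction (limma adjusted p = 0.0159); with median or 75th percentile centring that call ended. On the dim probe set of Rab27b that was not tested, the erythroid sample of pair 3 stood far below the other 3 erythroid samples, at a signal of 2.49 against 75.6 to 103. This was the single outlying value in 24 groups of 4 that were examined, and chance alone gives about 1 in 20.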

How the results depend on the processing

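Pf4 and Clec1b kept their direction and their call under all 17 alternatives tried. Fli1 kept its call under 15 of 16 and Rab27b under 12 of 16, and Ppbp gained one under 5 of 16. Member calls were 4, and 2 where only probe sets at or above the median on all 8 arrays were tested, since only 2 member probe sets were then left; leaving out 1 pair gave 3 to 4. The calls over all probe sets were 1594, but 447 without the pair block, 522 without a variance trend, 513 to 1506 with 1 pair left out, 1021 in pairs 1 and 2 and 2851 in pairs 3 and 4. Fits of 2 pairs have 1 residual degree of freedom and rest on the variance shared across probe sets. Member probe sets called for the interaction were 2 in place of 1 with the deposited scaling and with an offset of 32, in both cases Pf4 and Ppbp. Itga2b, not called in any setting, changed sign with the deposited scaling (0.11), 75th percentile centring (0.073), an offset of 32 (0.034), without pair 2 (0.64, against -0.33 without pair 4) and in pairs 3 and 4 (0.86), and Gp5 in pairs 3 and 4 (0.30). The following counts of list calls in either direction were added after the data were seen. With 1 pair left out, they were 4 to 9 for transcription factors, 2 to 5 for receptors, 4 to 8 for granule genes, 2 to 5 for the cytoskeleton and 2 to 6 for signalling. In pairs 1 and 2 receptors gave 2, granule genes 4 and signalling genes 2; in pairs 3 and 4 granule genes gave 11, cytoskeleton genes 10 and signalling genes 8. The pair block changed no member's call other than that of Fli1.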
